A study of Mus musculus with 18 samples.

Results

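The alpha and beta globins of embryonic and adult red cells were followed from ESCs to blood and in fibroblasts reprogrammed with blood transcription factors. They were taken by gene name: the embryonic beta globins *Hbb-y* and *Hbb-bh1*, the embryonic alpha globin *Hba-x*, the adult beta globins *Beta-s* and *Hbb-b1,Hbb-b2* (a pair name given to 1 row), and the adult alpha globins, whose pair name *Hba-a1,Hba-a2* stands on 2 rows. These 6 names were 7 of the 22089 rows, or 6 of the 20066 names, in the table of stages, and 7 of the 20495 rows, or 6 of the 20268 names, in the table of fibroblasts. Their levels are given in FPKM, fragments counted per length of transcript and per number of aligned reads, so that genes can be set side by side per length.

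RNA-seq was performed on 18 samples of mouse cells of strain 129. Of these, 10 came from an ESC line with a GFP reporter for *Brachyury*, grown on MEFs and differentiated in culture, with 2 replicates for each of 5 stages: ESC, mesoderm (MES, Bry:GFP+ and Flk1-), hemangioblast (HB, Bry:GFP+ and Flk1+), hematopoietic progenitors (HP, CD41+) and macrophages (MAC, CD11b+). Hemogenic endothelium (HE), which lies between HB and HP, was not analysed here. The other 8 were single libraries of MEFs from embryonic day 14.5, untreated (uFIB) or given *Scl* and *Lmo2* (SL), *Scl*, *Fli1*, *Gata2* and *Lmo2* (SFGL) or *Fli1*, *Gata2* and *Lmo2* (FGL), at day 12 and at day 21. *Scl* is another name of *Tal1*.

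The MEFs were either wild type or from iTal1-2A-GFP mice, which carry rtTA and TRE-TAL1 cassettes and express TAL1 on addition of doxycycline, and the labels do not say which library came from which. According to the methods, MEFs negative for CD45, CD41, CD31 and CD117 were sorted before transduction and then kept in a medium that held erythropoietin and other blood cytokines. The authors' table gives 1 value per stage over both replicates, and each MEF condition is 1 library. No value below therefore has a replicate error, and no difference between stages, or between treatments at 1 day, could be tested. Treatments were tested only over both days together, with limma on log2(FPKM + 1) and day as a block. A gene is said to rise or fall between 2 columns where log2(FPKM + 1) differed by at least 1 (2-fold) and the higher column reached 1 FPKM. In these bulk samples, more cells of a type and more RNA per cell cannot be told apart.

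Hemoglobin is a tetramer of alpha-type and beta-type chains, each of which holds a heme group. In the mouse, the red cells that arise in the yolk sac first express *Hba-x* with *Hbb-bh1* and *Hbb-y*, while the definitive red cells of the fetal liver and bone marrow express the adult genes, a change known as globin switching. The beta genes lie in a cluster on chromosome 7 in which the embryonic genes are nearer to the locus control region, an array of enhancers, than the adult genes, and the alpha genes lie in a cluster on chromosome 11.

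On GRCm38, the authors' rows lie at chr7:103851754-103853207 (*Hbb-y*), chr7:103841638-103843162 (*Hbb-bh1*), chr7:103826523-103827928 (*Beta-s*) and chr7:103812524-103813923 (*Hbb-b1,Hbb-b2*), all on the minus strand, and at chr11:32276600-32278115 (*Hba-x*), chr11:32283672-32284493 and chr11:32296489-32297310 (*Hba-a1,Hba-a2*), on the plus strand. The annotation calls the *Beta-s* locus *Hbb-bs* and the *Hbb-b1,Hbb-b2* locus *Hbb-bt*. Each gene has 3 exons. The opening coding sequences, from GENCODE, show how far the embryonic genes can be told from the adult genes by sequence, and how little the adult copies can be told from each other. The lines hold coding bases 1 to 60, 5′ to 3′, with capitals at bases that differ from *Hbb-bs* for the beta genes and from *Hba-a1* for the alpha genes.
Hbb-bs: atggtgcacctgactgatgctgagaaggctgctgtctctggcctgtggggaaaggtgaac
Hbb-bt: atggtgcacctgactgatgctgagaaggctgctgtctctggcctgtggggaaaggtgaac
Hbb-bh1: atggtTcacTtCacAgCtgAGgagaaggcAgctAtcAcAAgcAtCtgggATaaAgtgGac
Hbb-y: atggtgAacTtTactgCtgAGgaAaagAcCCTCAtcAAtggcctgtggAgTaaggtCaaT
Hba-a1: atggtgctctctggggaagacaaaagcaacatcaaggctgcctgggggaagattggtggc
Hba-a2: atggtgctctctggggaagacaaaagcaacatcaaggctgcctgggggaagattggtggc
Hba-x: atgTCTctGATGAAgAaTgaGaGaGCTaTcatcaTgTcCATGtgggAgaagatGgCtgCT

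Over these 60 bases the embryonic beta genes differed from *Hbb-bs* at 18 (*Hbb-bh1*) and 19 (*Hbb-y*) bases, and *Hba-x* differed from *Hba-a1* at 28. Over the whole coding sequence, *Hbb-bt* differed from *Hbb-bs* at 1 of 444 bases and *Hba-a2* from *Hba-a1* at 1 of 429. *Hbb-bh1* was 74.1% and *Hbb-y* 74.3% identical to *Hbb-bs*, and the 2 embryonic beta genes were 76.4% identical to each other. *Hba-x* was 62.0% identical to *Hba-a1*.

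These differences bear on the values, because the authors kept reads of the stages that aligned to a single place. All windows of 50 bases in the transcripts of *Hbb-y*, *Hbb-bh1* and *Hba-x* occurred in no other transcript of the annotation, whereas only 34.2% did for *Hbb-bs*, 41.7% for *Hbb-bt*, 32.5% for *Hba-a1* and 13.1% for *Hba-a2*. As far as annotated transcripts show, levels of the embryonic globins were thus measurable over their whole length. Other places in the genome were not searched. Levels of the adult rows, the division between *Beta-s* and *Hbb-b1,Hbb-b2*, and that between the *Hba-a1,Hba-a2* rows are uncertain. The windows come from the reference genome, and how they differ in strain 129 was not tested.

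HP was the stage with the highest level of 5 of the 6 globins, and nearly all of its globin RNA was embryonic. *Hbb-bh1* had the highest level of all genes in HP, at 5182 FPKM, up from 2.70 in the HB column, 0.268 in MES and 29.9 in ESC, and MAC cells had 5.92. *Hba-x* reached 1071 FPKM in HP, rank 11 among all genes, and had 12.8 in ESC and 0.902 in MAC, while MES and HB were listed at 0. *Hbb-y* reached 530 FPKM in HP, rank 24, and had 9.60 in ESC, 0 in MES, 0.0594 at the HB stage and 8.79 in MAC. All 3 embryonic genes were therefore low in ESC, lowest in MES or HB, and far higher in HP than elsewhere, as the plot of globin levels by stage shows.

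The adult globins were lower than the embryonic globins in HP. *Beta-s* was listed at 0 in ESC and MES, and had 0.0177 FPKM at the HB stage, 32.6 in HP and 9.38 in MAC. *Hbb-b1,Hbb-b2* was likewise listed at 0 in ESC and MES, and had 0.0211 FPKM at the HB stage, 1.12 in HP and 2.48 in MAC, the 1 globin row whose highest stage was MAC. Of the *Hba-a1,Hba-a2* rows, the upstream locus had 56.2 FPKM in HP, 2.68 in MAC and 0.463 in ESC. The downstream locus had 9.52, 0.805 and 0.0635 FPKM in the same stages, and both were listed at 0 in MES and HB. In HP the order of levels was *Hbb-bh1*, *Hba-x*, *Hbb-y*, the *Hba-a1,Hba-a2* rows, *Beta-s* and *Hbb-b1,Hbb-b2*. Without replicate values, it cannot be said which neighbours in this order differ beyond their spread.

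**Figure D1:**
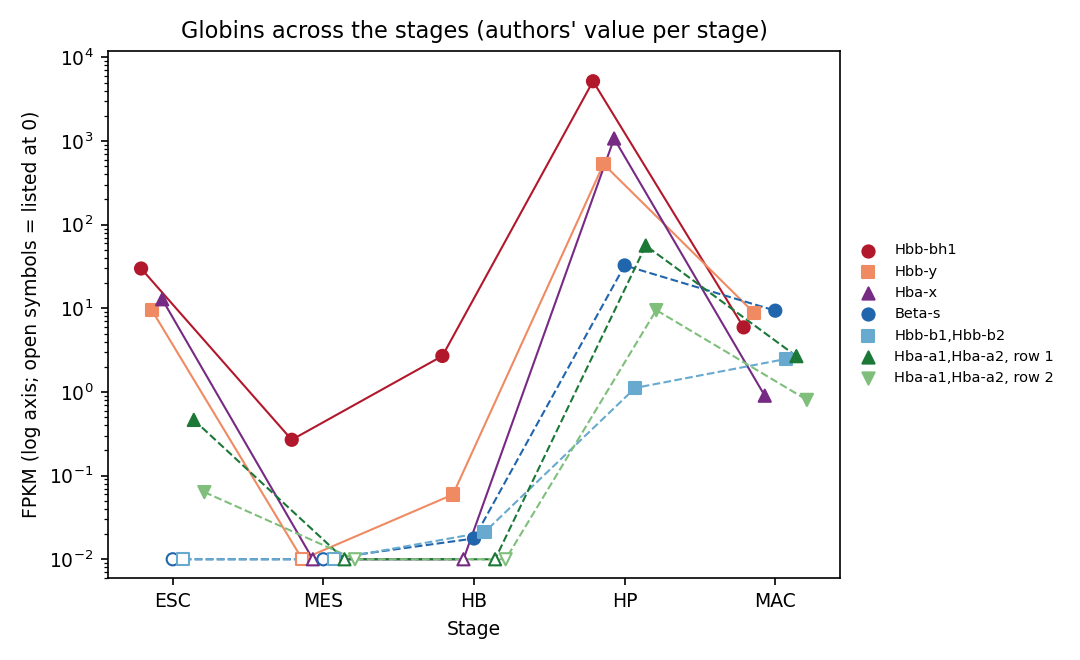
FPKM of each globin row (log axis) in the 5 stages, with filled symbols for values above 0 and open symbols at the bottom for rows listed at 0. Embryonic globins (solid lines) reached 530 to 5182 FPKM in HP and adult globins (dashed lines) 1.12 to 56.2, and lines join the authors' value of each stage without error bars.

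From ESC to MES, 3 of the 6 globins fell, against 7.3% of all genes tested: log2(FPKM + 1) differed by -4.61 for *Hbb-bh1*, -3.79 for *Hba-x* and -3.41 for *Hbb-y*. From MES to HB, *Hbb-bh1* alone rose, by 1.54, where 2.53% of all genes did. From HB to HP, all 6 rose, against 8.86% of all genes. The differences in log2(FPKM + 1) were 10.45 for *Hbb-bh1*, 10.07 for *Hba-x*, 8.97 for *Hbb-y*, 6.06 for *Hba-a1,Hba-a2*, 5.04 for *Beta-s* and 1.05 for *Hbb-b1,Hbb-b2*, the last just past the limit. For the globins listed at 0 in HB the difference rests on the pseudocount of 1 and is not a fold.

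From HP to MAC, 5 of the 6 globins fell, against 13.9% of all genes, while the median of all genes tested was higher in MAC by 0.45 on the same scale. The differences were -9.55 (*Hbb-bh1*), -9.14 (*Hba-x*) and -5.76 (*Hbb-y*) for the embryonic genes and -3.90 (*Hba-a1,Hba-a2*) and -1.69 (*Beta-s*) for the adult genes that fell, and *Hbb-b1,Hbb-b2* differed by 0.72, short of the limit. As a share of the HP level, MAC retained 0.114% of *Hbb-bh1*, 0.0842% of *Hba-x* and 1.66% of *Hbb-y*, but 5.30% of *Hba-a1,Hba-a2* and 28.8% of *Beta-s*. *Slc4a1*, the anion exchanger of the red cell membrane, had 0.447% of its HP level in MAC.

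The balance of embryonic to adult globin thus differed between HP and MAC. *Hbb-bh1* and *Hbb-y* made up 99.4% of the beta globin FPKM in HP and 55.4% in MAC, and *Hba-x* made up 94.2% of the alpha globin FPKM in HP and 20.6% in MAC. All globin rows together held 3.70% of all FPKM in HP and 0.00811% in MAC, so that the shares in MAC describe a small remnant of 31.0 FPKM in all. Dividing each adult level by its share of unique windows left the embryonic share of beta globin in HP at 98.3% and lowered that in MAC to 30.6%. The embryonic share of alpha globin then was 79.6% in HP and 5.85% in MAC.

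Within the embryonic beta globins, *Hbb-bh1* was the higher gene in ESC and HP, at 3.12 and 9.78 times the level of *Hbb-y*, and the lower gene in MAC, at 0.674 times. Alpha globin FPKM was 0.198 of beta globin FPKM in HP. Among the embryonic genes, whose windows occurred in no other transcript, *Hba-x* stood at 0.188 of the sum of *Hbb-bh1* and *Hbb-y* in HP.

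The low globin level in ESC was 1.81% of that in HP for *Hbb-y*, 1.20% for *Hba-x*, 0.801% for *Hba-a1,Hba-a2* and 0.577% for *Hbb-bh1*. Other red cell genes stood in ESC at similar shares of HP: *Slc4a1* at 1.10%, *Alas2*, the erythroid form of the enzyme that starts heme synthesis, at 1.01% and *Klf1* at 0.621%, with higher shares for *Gata1* (3.56%) and *Hbq1b*, a theta globin (11.0%). The 5 markers of ESCs summed to 638 FPKM in ESC and 1.89 in HP. What part cells other than ESCs had in these values was not tested.

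The genes that work with globins moved between HB and HP as follows, where 8.86% of all genes rose and 8.8% fell. Of 12 red cell membrane and cytoskeleton genes, 11 rose and 0 fell, with *Epb4.1* (protein 4.1) going from 11.4 to 67.4 FPKM, *Gypc* from 5.05 to 36.2 and *Spnb1* (beta spectrin) from 1.11 to 27.6. Of 10 heme synthesis genes, 7 rose and 0 fell. *Urod*, a decarboxylase of the pathway, went from 28.7 to 58.3 FPKM and *Alas2* from 0.858 to 35.2, whereas *Alas1*, the form used outside red cells, was at 5.90 in both stages and at 127 in MAC. Of 12 erythroid regulators, 9 rose and 0 fell. *Tal1* went from 19.9 to 57.3 FPKM and *Nfe2*, a globin activator, from 1.13 to 54.5, while *Lmo2* was at 56.5 in HB and 49.4 in HP and *E2f4* at 30.6 and 23.7. From HP to MAC, 11 of the 12 membrane genes, 4 of the 10 heme genes and 8 of the 12 regulators fell, and 0, 1 and 0 rose, where 13.9% of all genes fell and 33.4% rose.

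Of 6 further globins, 2 rose from HB to HP, against 8.86% of all genes. Both reached low levels: *Hbb-bh2*, another gene of the beta cluster, went from 0 to 2.33 FPKM and *Hbq1b* from 0.0157 to 2.02. *Cygb*, cytoglobin, was at 0.129 FPKM in HP and 3.69 in MAC, and *Ngb*, neuroglobin, had its highest level, 0.825 FPKM, in ESC. Of 6 genes for partners of hemoglobin in the red cell, 2 rose from HB to HP, against the same 8.86%. *Prdx2*, a peroxiredoxin abundant in red cells, was at 257 FPKM in HB and 344 in HP, *Car2*, carbonic anhydrase, at 181 and 101, *Blvrb*, biliverdin reductase, at 10.9 and 56.6, and *Cat*, catalase, at 17.0 and 40.6.

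HP also held markers of other cells. Of 6 megakaryocyte markers 5 rose from HB to HP, where 8.86% of all genes rose and 8.8% fell. The summed level of these markers went from 1.57 to 98.2 FPKM, of which *Itga2b*, the gene of the sorting marker CD41, made up 62.5. The 5 endothelial markers summed to 72.4 FPKM in HP (3 rose, 1 fell), 6 fibroblast markers to 37.4 (3 rose) and 7 macrophage markers to 11.3 (2 rose). In MAC the 7 macrophage markers summed to 2516 FPKM, all 7 having risen from HP, against 33.4% of all genes. The globin levels are those of the mixture, and the part of each cell type in them was not tested.

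Genes linked to globin switching were examined next. Of the 11 found in the table of stages, 4 rose and 0 fell from HB to HP, against 8.86% and 8.8% of all genes. *Klf1*, an erythroid factor needed for adult beta globin expression, went from 0.224 to 28.4 FPKM, and *Mbd2*, a reader of DNA methylation with a part in silencing embryonic and fetal globin, from 5.60 to 15.0. *Igf2bp1*, an RNA-binding protein of fetal cells, had 73.7 FPKM in ESC, 82.6 in MES, a maximum of 95.9 in HB, and less in HP (54.1) and MAC (11.6). *Chd4*, a chromatin remodeller, was at 83.2 in HB and 80.3 in HP. The next genes were picked after their values were seen. *Lin28b*, a fetal RNA-binding protein, was at 22.0 FPKM in HB, 23.6 in HP and 6.07 in MAC, *Myb* was at 1.52 in HB and 19.3 in HP, and *Bcl11a*, a repressor of fetal and embryonic globin, was at 0.340 in HB and 0.316 in HP.

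**Figure D2:**
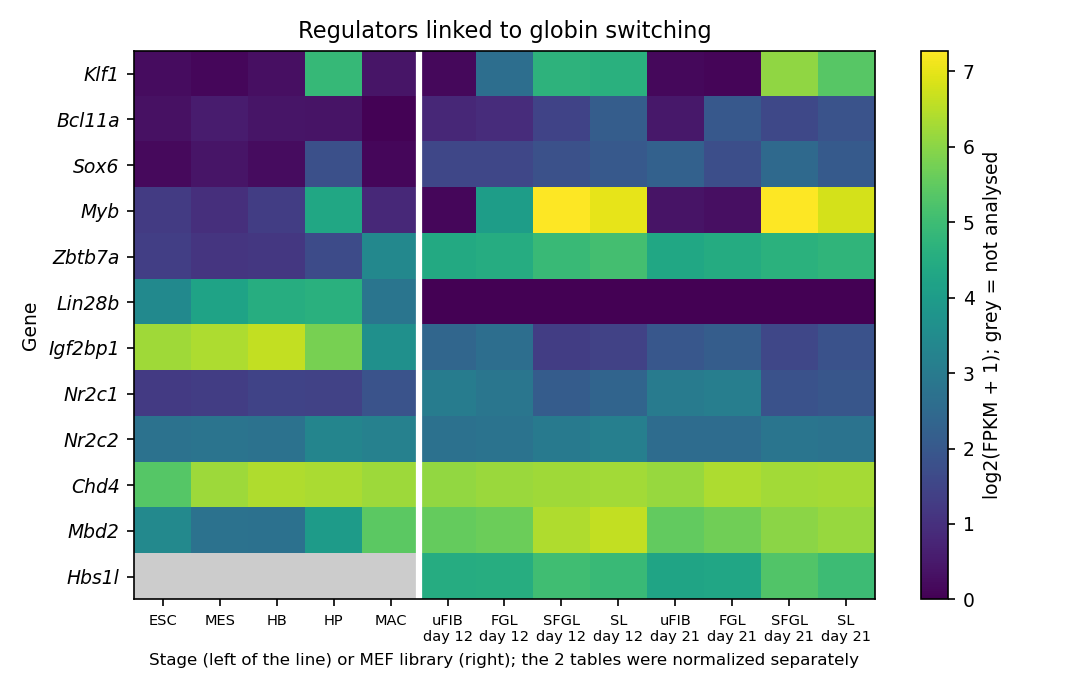
Levels of 12 regulators linked to globin switching, as log2(FPKM + 1) by colour, in the 5 stages and the 8 MEF libraries, which were normalized separately (grey, not analysed). *Lin28b* was present in every stage and at or near 0 in every MEF library, and *Klf1* and *Myb* were high in HP and in SL and SFGL.

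The factors given to the MEFs were checked in every library, in the order uFIB, SL, SFGL and the library labelled FGL. *Lmo2*, which all treated cells received, had 0.499, 57.0, 48.4 and 36.2 FPKM at day 12, and 2.28, 150, 128 and 66.5 at day 21. *Tal1* had 0.0414, 62.0, 58.0 and 7.04 FPKM at day 12, and 0.415, 347, 119 and 0.0705 at day 21. The library labelled FGL thus held *Tal1* RNA at day 12, although *Tal1* is not among its factors. Whether this RNA came from the cells' own gene was not tested. *Fli1* had 3.43, 46.7, 41.2 and 8.29 FPKM at day 12, and 3.02, 34.4, 27.8 and 3.35 at day 21, so that the library labelled FGL was close to uFIB at day 21 although *Fli1* is among its factors. *Gata2* had 1.80, 68.8, 110 and 21.9 FPKM at day 12, and 2.13, 62.6, 132 and 35.1 at day 21.

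The MEF libraries with globin RNA had the opposite balance to HP. In the order uFIB, SL, SFGL and the library labelled FGL, *Beta-s* had 0.127, 917, 446 and 294 FPKM at day 12, and 0, 820, 904 and 0 at day 21. In the same order, *Hbb-b1,Hbb-b2* had 0, 313, 269 and 79.0 FPKM at day 12, and 0, 394, 527 and 0.222 at day 21. The former of the *Hba-a1,Hba-a2* rows was at 0, 854, 473 and 282 FPKM at day 12 and at 0, 704, 809 and 0 at day 21. With SL and SFGL, and at day 12 also in the library labelled FGL, these adult rows were thus high, with *Beta-s* at ranks 57 to 184 of all genes.

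The embryonic genes were present in the same 5 libraries at lower levels. In the same order, *Hba-x* was at 0, 42.5, 14.8 and 11.2 FPKM at day 12, and at 0, 115, 106 and 0 at day 21. *Hbb-bh1* was at 0, 22.0, 16.5 and 4.01 FPKM at day 12, and at 0.0949, 44.9, 35.0 and 0.231 at day 21. *Hbb-y* was at 0, 21.1, 13.4 and 5.82 FPKM at day 12, and at 0, 35.2, 51.0 and 0 at day 21. In the library labelled FGL at day 21, genes of similar length had a median of 0.253 FPKM over their 10 lowest values above 0, so that its values of *Hbb-bh1* and *Hbb-b1,Hbb-b2* were at the lower end of what that library can show.

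**Figure D3:**
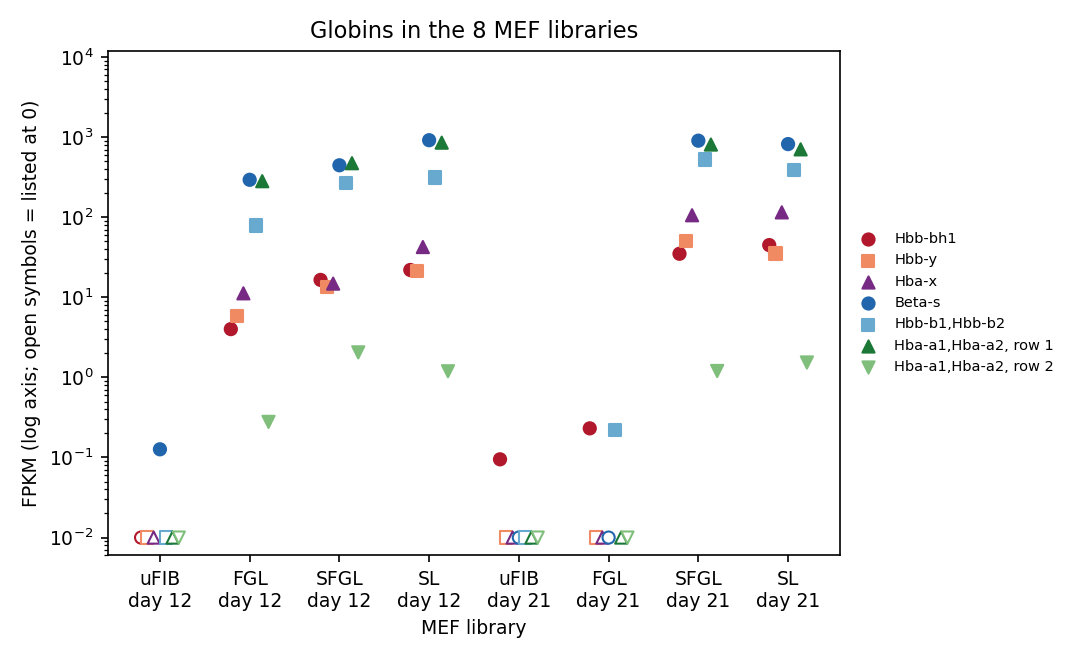
FPKM of each globin row (log axis) in the 8 MEF libraries, with filled symbols for values above 0 and open symbols at the bottom for rows listed at 0. In 5 libraries *Beta-s* stood at 294 to 917 FPKM, above *Hba-x*, *Hbb-bh1* and *Hbb-y* at 4.01 to 115, and in both uFIB libraries and that labelled FGL at day 21 no globin exceeded 0.231.

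Against uFIB of the same day, all 6 globins rose in SL at day 12 (14.2% of all genes rose), in SFGL at day 12 (14.7%), in the library labelled FGL at day 12 (2.96%), in SL at day 21 (11.9%) and in SFGL at day 21 (13.9%). In the library labelled FGL at day 21, 0 of 6 rose, against 0.479% of all genes. The 3 comparisons of a day share the uFIB library. The median difference of the members in log2(FPKM + 1) was 6.87, 6.10 and 4.97 at day 12 (SL, SFGL, FGL), where that of all genes tested lay between -0.04 and -0.03, and 7.74 and 7.89 at day 21 (SL, SFGL).

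Over both days together, limma with day as a block, 3 residual degrees of freedom and Benjamini-Hochberg adjustment over 12803 genes called all 6 globins higher than uFIB in SL, with 25% of all genes, and in SFGL, with 27.4%. In SL the difference in log2(FPKM + 1) ranged from 4.82 ± 1.03 (SE) for *Hbb-y* to 9.68 ± 2.21 for *Beta-s*, and the adjusted p from 0.00428 to 0.0166. In SFGL it ranged from 4.58 ± 0.753 for *Hbb-bh1* to 9.28 ± 2.17 for *Hba-a1,Hba-a2*, and the adjusted p from 0.00430 to 0.0225. For the label FGL, whose libraries of day 12 and day 21 lay far apart, limma called 0 of 6 (0.0156% of all genes), with differences of 1.25 ± 0.753 (*Hbb-bh1*) to 4.07 ± 2.17 (*Hba-a1,Hba-a2*), unadjusted p of 0.103 to 0.256 and an adjusted p of 0.949 for each. This fit takes libraries of different days as the replicates of a treatment, so that a change with time that differs between treatments counts as error. The SE of a gene is pooled over all treatments and is the same in SL, SFGL and FGL. For *Beta-s*, the difference from uFIB was 9.67 at day 12 and 9.68 at day 21 in SL, but 8.03 and 0 for the label FGL. The SE and p given for SL and SFGL thus include the spread between the libraries labelled FGL.

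The globins of the library labelled FGL at day 12 stood at 18.3% (*Hbb-bh1*) to 33.0% (*Hba-a1,Hba-a2*) of SL, and other blood genes there at 11.3% (*Tal1*), 11.6% (*Nfe2*), 12.3% (*Myb*), 22.0% (*Klf1*), 38.01% (*Slc4a1*) and 39.1% (*Alas2*) of SL. Against SFGL of day 12 the spread was wider, with the globins at 24.3% (*Hbb-bh1*) to 75.6% (*Hba-x*). The other genes stood at 12.1% (*Tal1*), 10.3% (*Nfe2*), 10.1% (*Myb*), 20.9% (*Klf1*), 106% (*Slc4a1*) and 111% (*Alas2*) of SFGL. Whether the library labelled FGL at day 12 held cells of another condition was not tested. The embryonic share of beta globin in this library was 2.57% and that of alpha globin 3.82%.

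The embryonic share of beta globin FPKM at day 12 was 3.38% with SL and 4.02% with SFGL, and at day 21 it was 6.19% and 5.67%. The embryonic share of alpha globin was 4.73% and 3.03% at day 12, and 14.0% and 11.6% at day 21. Both shares were higher at day 21 than at day 12 in SL and in SFGL, with 1 library at each point. The embryonic genes differed from the adult genes in their course in SL. In SFGL, *Hba-x* and *Hbb-y* did so, while *Hbb-bh1* stood close to the adult genes. From day 12 to day 21, SL had 2.71 times the level of *Hba-x*, 2.05 times that of *Hbb-bh1* and 1.66 times that of *Hbb-y*, but 0.826 times that of *Hba-a1,Hba-a2*, 0.894 times that of *Beta-s* and 1.26 times that of *Hbb-b1,Hbb-b2*. In SFGL, *Hba-x* stood at 7.14 times, *Hbb-y* at 3.79 times and *Hbb-bh1* at 2.12 times its level at day 12, and the adult genes at 1.70 to 2.03 times.

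**Figure D4:**
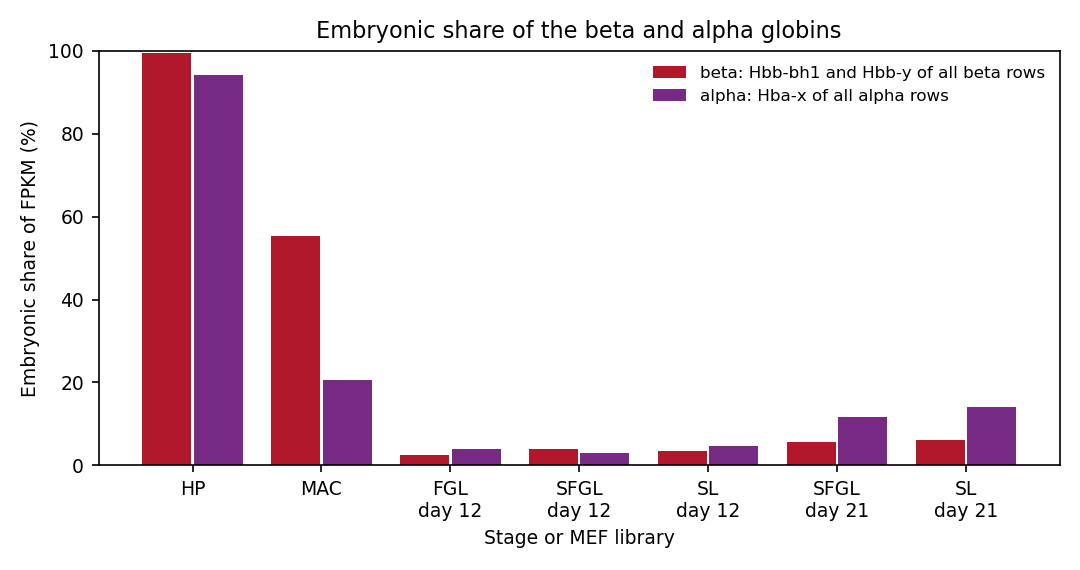
Embryonic share of the beta globin FPKM (*Hbb-bh1* and *Hbb-y*, red) and of the alpha globin FPKM (*Hba-x*, purple), in percent, in HP, MAC and the 5 MEF libraries with globin RNA, 1 value each and no error. The shares were 99.4% and 94.2% in HP, and 2.57% to 14.0% in the MEF libraries.

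The levels of HP and of the MEFs come from tables that were aligned and normalized separately, so that levels were not compared between them. Shares and ratios within a column do not depend on the normalization. Those that include adult rows do depend on how reads shared between copies were counted. Whether this was done alike for the stages and the MEFs, whose reads were placed by different software, was not tested. Ratios within the families differed as well. *Hbb-bh1* was at 9.78 times *Hbb-y* in HP and at 0.686 to 1.28 times in the 5 MEF libraries. *Beta-s* was at 29.1 times *Hbb-b1,Hbb-b2* in HP, 3.78 times in MAC and 1.66 to 3.72 times in the MEFs, with the division between these rows uncertain. Alpha globin FPKM was 0.198 of beta globin FPKM in HP and 0.604 to 0.767 in the MEFs. The upstream *Hba-a1,Hba-a2* row was at 5.90 times the downstream row in HP, whereas in the MEFs, where the rows carry no position, the former was at 230 to 1013 times the latter. How the 2 tables divide reads between these copies was not tested.

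The partners of globin in the MEFs were called against the shares of all genes given above. Of 12 red cell membrane genes, 11 rose in each treated library of day 12 and in SL of day 21, and 12 rose in SFGL of day 21. *Slc4a1* was at 0.0126, 68.0, 24.4 and 25.8 FPKM in the day 12 libraries of uFIB, SL, SFGL and FGL. Of 12 erythroid regulators, 10 rose in SL and SFGL on both days and 9 in the library labelled FGL at day 12, among them *Nfe2*, at 0.149, 142, 160 and 16.5 FPKM in the same libraries. *Tal1* and *Lmo2* are themselves among the factors given to the cells, so that their rise where given is not a finding. Of 10 heme synthesis genes, 4 rose with either SL or SFGL by day 12 and 5 by day 21, and 1 rose in the library labelled FGL of day 12, which was *Alas2*, at 0.126 FPKM in uFIB and 20.8 there. Of 6 other globins, *Hbq1b* rose in these 5 libraries, to 1.18 to 4.66 FPKM, while *Cygb* fell with SL and SFGL on both days, from 25.2 to 5.34 FPKM for SL at day 12. Of 6 partner genes 2 or 3 rose, with *Car2* at 0.861 FPKM in uFIB and 152 in SL at day 12. In the library labelled FGL at day 21, 1 of the 12 erythroid regulators rose, *Lmo2*, at 66.5 FPKM, and 0 membrane, heme or partner genes did.

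Among the 12 switching genes in the MEFs, 4 rose with SL, 2 with SFGL and 2 in the library labelled FGL by day 12, and by day 21 the numbers were 3, 4 and 1. With SFGL at day 12, 2 of 12 is close to the share of all genes that rose (14.7%), and says nothing particular of these genes. In each of SFGL at day 12, SL at day 21 and SFGL at day 21, 1 fell, where 17%, 12.3% and 15.9% of all genes did. *Myb*, which keeps progenitors dividing and is linked to fetal globin, had 0.0848, 126, 154 and 15.5 FPKM in the day 12 libraries of uFIB, SL, SFGL and FGL. *Klf1* was at 0.123, 23.6, 24.9 and 5.19 FPKM at day 12, and at 0.115, 40.7, 65.5 and 0.0700 at day 21. At day 12, *Mbd2* had 45.8, 96.3 and 83.2 FPKM and *Chd4* 67.5, 76.1 and 74.7 (uFIB, SL, SFGL). The following were again picked after their values were seen. *Lin28b* was listed at 0 in 6 of the 8 libraries and did not exceed 0.0135 FPKM in the others, and *Igf2bp1* did not exceed 5.14. At day 12, *Bcl11a* had 0.753, 3.45, 1.77 and 0.893 FPKM in uFIB, SL, SFGL and the library labelled FGL. At day 21 it had 0.380, 2.63, 1.98 and 3.01 FPKM in the same order, and the last of these libraries held next to no globin RNA. *Zbtb7a*, another repressor of fetal globin, ranged from 19.0 to 33.5 FPKM over the 8 libraries.

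Markers of other cells moved with the globins in the MEFs too. The 7 fibroblast markers had sums of 7293, 2524, 2063 and 6217 FPKM in the day 12 libraries of uFIB, SL, SFGL and FGL, and all 7 fell in SL and SFGL, where 13.5% and 17% of all genes fell. At day 21, they summed to 5708, 1602, 1274 and 5781 FPKM, and 6 of the 7 fell in SL and SFGL, against 12.3% and 15.9% of all genes. The 5 megakaryocyte markers found had sums of 1.37, 85.5, 141 and 13.8 FPKM at day 12, and the 7 macrophage markers had sums of 3.92, 175, 239 and 20.4. Of these, 3 rose in SL, 4 in SFGL and 1 in the library labelled FGL, where 14.2%, 14.7% and 2.96% of all genes rose. *Fcgr3*, a receptor also found on other myeloid cells, made up most of the sum in the treated libraries, *Cd68* had 2.93, 26.2, 30.1 and 4.21 FPKM, *Emr1* 0.0359, 5.35, 6.69 and 0.386, and *Csf1r*, the receptor that defines macrophages, 0.223, 0.884, 1.92 and 0.546. *C1qb*, a complement gene of macrophages, did not exceed 0.0408 FPKM in these treated libraries. The part of these cells in the globin levels was not tested.

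Across both tables, the genes whose pattern was most like that of the summed embryonic globins were *Nrgn*, *Gata1*, *Slco4a1*, *Xk* and *Suv420h2*. Their likeness is the lower of 2 Pearson r on log2(FPKM + 1), over the 5 stages and over the 8 MEF libraries, which was 0.972, 0.958, 0.948, 0.941 and 0.938, among 9958 genes compared. For the summed adult globins they were *Atp2a3* (0.965), *Nfe2* (0.962), *Prtn3* (0.957), *Gpr97* (0.950) and *Lyl1* (0.942). These r describe few points, which share their libraries with the globins. *Gata1*, the erythroid GATA factor, had 37.2 FPKM in HP and between 0.0470 and 1.33 in the other stages. *Prtn3*, a protease of granulocyte precursors, had 7.91 FPKM in HP, and 6.01, 618 and 808 in uFIB, SL and SFGL by day 12.

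Since the globins rise together in the same columns, the 120 bases before the RefSeq start of each gene but *Hbb-bh1* were searched on both strands for CACCC (the box bound by KLF1), for CCAAT (a box common in promoters), for GATAA (the motif of GATA factors) and for ATAAA (part of a TATA-like box). Over all 32851 promoters of the same length, the share with a match was 31.7% for the CACCC letters, 21.3% for the CCAAT letters, 10.5% for the GATAA letters and 20.2% for the ATAAA letters. The lines give an embryonic and an adult beta gene and an adult alpha gene, on GRCm38, 5′ to 3′ on the strand of the gene, with matches in capitals.
Hbb-y (chr7:103853208-103853327): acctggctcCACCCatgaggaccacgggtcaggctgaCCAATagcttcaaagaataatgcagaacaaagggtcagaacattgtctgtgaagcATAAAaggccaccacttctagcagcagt
Hbb-bs (chr7:103827929-103828048): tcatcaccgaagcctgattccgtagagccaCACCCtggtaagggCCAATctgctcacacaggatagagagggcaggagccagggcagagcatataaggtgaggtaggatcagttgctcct
Hba-a2 (chr11:32296372-32296491): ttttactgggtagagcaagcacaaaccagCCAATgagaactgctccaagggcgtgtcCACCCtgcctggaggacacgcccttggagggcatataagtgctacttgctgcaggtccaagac

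CACCC was found before embryonic and adult genes alike. *Hbb-y* held CACCC from 111 to 107 and CCAAT from 83 to 79 bases before the start, and *Hbb-bs* held them from 90 to 86 and from 76 to 72. In *Hba-a2* the order was turned, with CCAAT from 91 to 87 and CACCC from 63 to 59 bases before the start. The window of *Hba-x* held a match to GATAA and to the other motifs except CCAAT. That of *Hbb-bt* held 2 matches to CACCC. It further held 3 matches to CCAAT, and also ATAAA in 1 place. These matches are letters in a window and were not tested for binding. A search for ATAAA misses other TATA-like letters, such as catataag, left in lower case in the windows of *Hbb-bs* and *Hba-a2*. A window without a match to ATAAA may thus still hold a TATA-like box.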

How the data were processed

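RNA was depleted of ribosomal RNA for the stages, and total RNA-seq libraries were made for both sets of samples. For the stages, SHRiMP placed the reads on mm10 (GRCm38), reads with a single position were retained and Picard was used against duplicates, and the authors deposited FPKM values from Cufflinks, 1 per transcription start site and stage over both replicates. For the MEFs, the authors deposited 1 FPKM value per gene and library, and the submitters' processing notes name TopHat and Cufflinks. Versions are not given in the sources used here. The files hold no read counts, so that neither count tests nor counting intervals could be used. The paper states that its supplement lists numbers of aligned reads, and these were not used here. Removing duplicates can cap high values. The 5182 FPKM of *Hbb-bh1* in HP correspond to 0.318% of the aligned reads. Its transcript offers 1128 start positions of 50-base reads over both strands, a number that a library of 355097 aligned reads would reach at this share. Whether this value was capped was not tested.

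Rows of 1 name were summed, groups were taken from the labels, and columns were compared on log2(FPKM + 1) within a table, as differences without a test. The plan to fit limma to replicate columns of the stages could not be carried out, as there were none. The MEFs were also fitted with limma 3.58.1 in R 4.3.3 (treatment and day as terms, genes reaching 1 FPKM in a library, moderated variances with a trend, calls at an adjusted p under 0.05), an analysis added after the data were seen. The column of 1 sample not in this series, HE, was not used. The members and gene lists were chosen with earlier results of these data known. The genes named were all globin rows, up to 4 genes of each list with the highest FPKM in a table, and the 5 genes most like the summed embryonic and summed adult globins, and others are marked as picked after their values were seen, apart from genes given as shares of HP or SL, those of the label check and single macrophage markers, which also fall outside that rule. *Ahsp* in both tables, *Hbs1l* and *Pdgfrb* in the stages and *Gp1bb* in the MEFs were not analysed here. The values of 2 further genes of these lists are not reported here. Sequences came from GENCODE M21 and RefSeq (GRCm38.p6), and windows of 50 bases were counted against GENCODE transcripts. The counts of genes called, the limma fit and the search for like patterns were tested on simulated data. The alternatives were pseudocounts of 0.001 and 0.1, a 4-fold limit, a minimum of 10 FPKM, scaling to the same upper quartile, the highest start site in place of the sum, adult levels divided by their share of unique windows, and either adult beta row alone. Python 3.11.15, NumPy 2.4.6, pandas 2.3.3 and matplotlib 3.10.9 were used.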

Additional observations from a re-analysis of the deposited data

How the results depend on the processing

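Of 100 counts of globins that rose or fell under the alternatives, 96 stayed within 1.5 times the reported count. They include counts of 0 that could not change, such as falls against uFIB, in which no globin reached 1 FPKM. The number 96 is therefore no measure of robustness. From MES to HB, 0 globins in place of 1 rose with a 4-fold limit or a minimum of 10 FPKM. From HP to MAC, 1 in place of 0 rose with a pseudocount of 0.001 or 0.1, which was *Hbb-b1,Hbb-b2*. The embryonic share of beta globin in HP was 98.3% with adult levels divided by unique windows and 99.98% with *Hbb-b1,Hbb-b2* as the adult row, and its median over the 5 MEF libraries, 4.02%, became 1.51% with unique windows, 6.30% with *Beta-s* alone and 12.1% with *Hbb-b1,Hbb-b2* alone (10.02% to 16.9% over the libraries). In MAC the same 3 alternatives gave 30.6%, 61.1% and 85.6%. The embryonic share of alpha globin was 95.0% in HP with the highest start site and 79.6% with unique windows, and its MEF median of 4.73% became 4.74% and 1.18%. The ratio of alpha to beta globin in HP was 0.196 with the highest start site and 0.232 with unique windows, and its MEF median of 0.658 became 0.655 and 1.01. With *Beta-s* alone or *Hbb-b1,Hbb-b2* alone as the adult beta row, alternatives chosen after seeing the data, it was 0.198 and 0.199 in HP and had medians of 0.935 and 1.73 in the MEFs (0.912 to 1.03 and 1.49 to 3.30). These shifts follow from the construction of each alternative, and the embryonic share stayed at or above 79.6% in HP and at or below 16.9% in each of the 5 MEF libraries under those tried. Division by unique windows assumes that reads shared between copies were dropped. This is stated for the stages, and whether it holds for the MEFs was not tested. No paired analysis was possible because the stages, whose labels number the replicates, have 1 value over both, and for the same reason no replicate could be left out. The fit of the MEFs by limma with day as a block, also chosen after seeing the data, called 0 globins in place of 6 for FGL at day 12 and the same numbers as reported in the other MEF comparisons. Depth limits the low values: the lowest values above 0 of genes of this length had a median of 0.0841 to 0.253 FPKM in the MEF libraries.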
